A study of Mus musculus with 6 samples.

Results

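The genes described here are 10 genes of myofibroblasts, smooth muscle and the kidney interstitium. They were chosen by name: a transcript of the sequencing table belongs to the list if its gene symbol is *Acta2*, *Tagln*, *Myh11*, *Cnn1*, *Actg2*, *Des*, *Lmod1*, *Pdgfra*, *Pdgfrb* or *Thy1*. All 10 symbols were found among the 23276 gene symbols of the table, and they account for 16 of its 54721 transcripts. RNA was taken from whole kidneys of 6 mice, at postnatal day 22 according to the labels. The paper gives a slightly younger age. All 6 mice carried KspCre and *Pkd1* F/RC, that is, 1 floxed allele of *Pkd1* and 1 allele with the hypomorphic RC mutation. In 3 of them, *Pkd1*F/RC SKO, nothing else was altered, and in the other 3, *Pkd1*F/RC DKO, the miR17~92 F/F alleles were present as well. Ksp/Cre recombines floxed alleles in renal tubule epithelium, so *Pkd1* and miR-17~92 were targeted in tubule cells and the RC mutation was carried by every cell. No wild-type kidney is part of the series.

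The table gives each transcript 1 mean abundance over the SKO and DKO libraries, as the log2 of the CPM, which is the count of a transcript scaled to a fixed library total. Beside it stand the authors' own test results for DKO against SKO, which were not used here. No value of a single kidney was used here. For that reason the levels below are averages over SKO and DKO kidneys, no error can be attached to them, no difference between the genotypes is reported, and the depth of each library is unknown. The mean also cannot check the genotype labels: *Mir17hg*, the host transcript of miR-17~92, had a mean of 4.21 CPM and *Pkd1* a mean of 31.8 CPM over both groups.

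Smooth muscle cells of arteries and arterioles contract through bundles of actin and myosin that are held by desmin filaments and tuned by regulatory proteins such as calponin. Pericytes and fibroblasts surround the tubules and capillaries. They carry receptors for platelet-derived growth factors (PDGF), and when they turn into myofibroblasts they acquire smooth muscle actin and deposit matrix. In polycystic kidneys such cells accumulate around cysts. In RNA of a whole kidney, fewer cells of a type and less RNA per cell cannot be told apart.

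*Acta2* and *Tagln* were the highest genes of the list. Per kilobase (kb) of transcript, which is the scale on which genes can be compared, *Acta2* reached a level of 41.1 CPM per kb and *Tagln* a level of 35.8 CPM per kb. The next gene, *Pdgfrb*, was at 8.28 CPM per kb, 4.33-fold below *Tagln*, which was the largest step between neighbours. From *Pdgfrb* the levels went down through *Pdgfra*, *Thy1*, *Myh11*, *Actg2*, *Des* and *Cnn1* to *Lmod1*, at 1.21 CPM per kb. *Lmod1* was 33.9-fold below *Acta2*. When the transcripts of each gene were summed, *Tagln* was 2.16-fold above *Pdgfrb* per kb and the largest step lay between *Myh11* and *Actg2*. Because the spread between kidneys is unknown, it cannot be said which neighbours in this order differ.

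**Figure D1:**
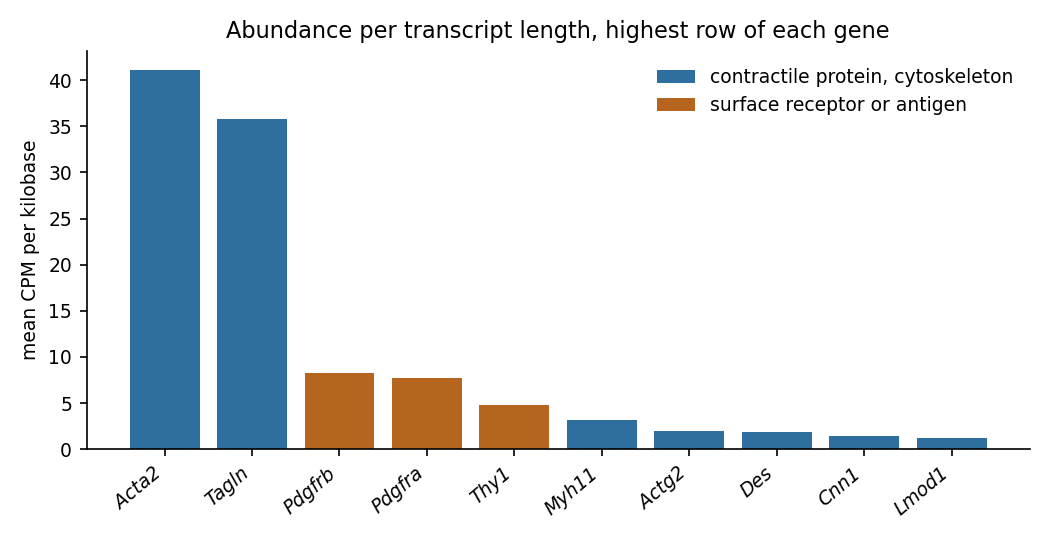
Mean abundance of each of the 10 genes in CPM per kilobase of transcript, as bars in order of level, averaged over SKO and DKO kidneys and without error bars because no value of a single kidney was used. *Acta2* (41.1) and *Tagln* (35.8) stand above the other 8 genes, which lie between 1.21 and 8.28.

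Set against all genes, the list spanned the upper part of the distribution. Of 22662 gene symbols with a known transcript length, the median level was 1.02 CPM per kb, and all 10 genes of the list lay above it, with a median of 3.99 CPM per kb. *Acta2* lay above 97.1% and *Tagln* above 96.7% of gene symbols. *Lmod1*, the lowest, was at 51.8%. Many symbols in the table have almost no reads, however. Among the 12853 genes of known length whose mean was 1 CPM or more, the median level was 4.18 CPM per kb, close to that of the list, and *Lmod1* lay above 15.8%, *Cnn1* above 18.2% and *Des* above 25.7% of them. *Acta2* still lay above 95.0% of this group.

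**Figure D2:**
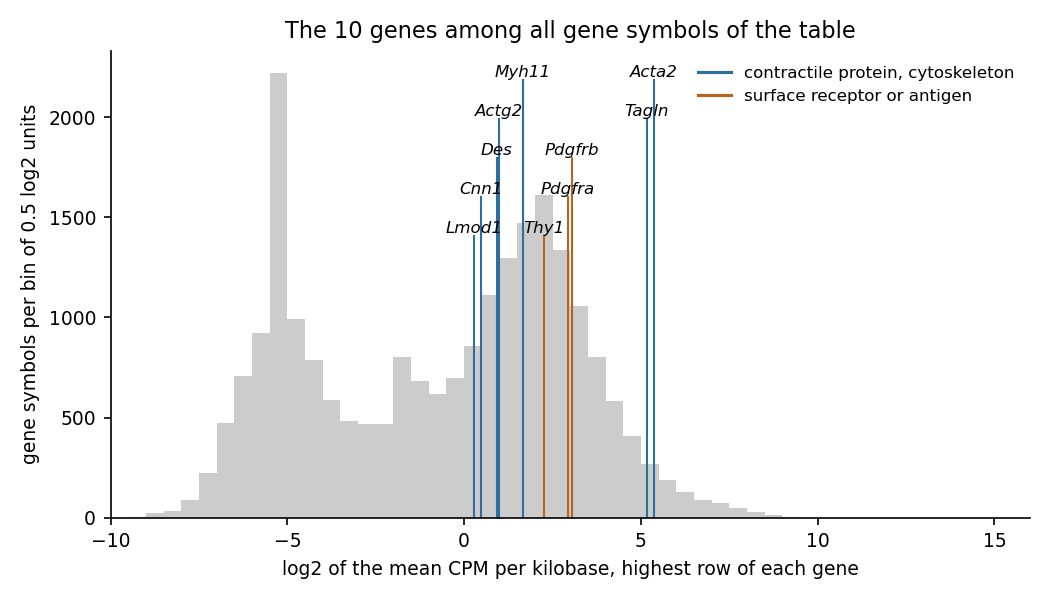
Histogram of the log2 of the mean CPM per kilobase over 22662 gene symbols (grey, in bins of 0.5), with a vertical line for each of the 10 genes, blue for contractile and cytoskeletal genes and brown for surface proteins; the heights of the lines carry no value. All 10 lines lie to the right of the left-hand peak of nearly silent genes, and those of *Acta2* and *Tagln* lie in the right tail.

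The contractile genes were uneven in level. *Acta2* encodes smooth muscle α-actin, the protein most often used to stain myofibroblasts. It lies on the reverse strand of chr19:34241090-34255590 (mm10) with 9 exons and had a mean of 83.7 CPM. *Tagln* encodes transgelin (SM22α), an actin-binding protein of smooth muscle. It lies on the reverse strand of chr9:45929619-45936058 with 5 exons and had a mean of 57.2 CPM, which per kb is 0.871 times the level of *Acta2*. *Myh11*, the heavy chain of smooth muscle myosin and the marker most restricted to mature smooth muscle, lies on the reverse strand of chr16:14194535-14291372 with 41 exons. At a mean of 20.8 CPM over a transcript of 6549 bases it reached 3.17 CPM per kb, so that *Acta2* was 13.0-fold higher per kb.

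The remaining contractile genes were low. *Actg2* encodes smooth muscle γ-actin, which is known from the muscle of gut and bladder. It lies on the reverse strand of chr6:83512905-83536265 and had a mean of 2.64 CPM, or 1.98 CPM per kb, 20.7-fold less per kb than *Acta2*. *Des* encodes desmin, the intermediate filament of muscle cells, and lies on the forward strand of chr1:75360329-75368579. Its level was 1.89 CPM per kb from a mean of 5.72 CPM. *Cnn1* (calponin 1, an inhibitor of actomyosin in smooth muscle; forward strand, chr9:22099268-22109630) had a mean of 3.29 CPM, and *Tagln*, which shares a calponin-type domain with it, was 26.0-fold higher per kb. *Lmod1* (leiomodin 1, which nucleates actin filaments in smooth muscle; forward strand, chr1:135324807-135368065) had a mean of 4.79 CPM over a transcript of 3948 bases. Thus 5 of the 7 contractile genes lay between 1.21 and 3.17 CPM per kb, and the other 2 were more than 10 times as high as any of these 5. This holds for the highest transcript of each gene. With transcripts summed, *Myh11* rose 2.0-fold and *Tagln* did not change, so *Tagln* was then less than 10 times as high as *Myh11*.

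The PDGF receptors were at nearly the same level. *Pdgfrb*, the receptor tyrosine kinase of pericytes and vascular smooth muscle cells, lies on the forward strand of chr18:61045150-61085061 and had a mean of 44.8 CPM. *Pdgfra*, the related receptor that marks interstitial fibroblasts, lies on the forward strand of chromosome 5, where its most abundant transcript spans chr5:75155899-75198201, and had a mean of 52.5 CPM. Per kb the levels were 8.28 for *Pdgfrb* and 7.68 for *Pdgfra*, a ratio of 0.927. *Thy1* (forward strand, chr9:44043384-44048579, 4 exons) encodes the small surface glycoprotein CD90, found on fibroblasts but also on T cells and neurons. Its mean was 8.34 CPM, or 4.81 CPM per kb, and *Pdgfrb* was 1.72-fold higher per kb.

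Of the 10 genes, 5 had a single transcript in the table and 5 had more than 1. The transcripts comprised 13 with a RefSeq mRNA identifier, all of which were matched to the GENCODE annotation (GRCm38), and 3 that the authors assembled from the reads. For *Acta2*, NM_007392 had a mean of 83.7 CPM, the assembled transcript CUFF.18371.2 also 83.7 CPM, and the assembled transcript CUFF.18371.3 only 21.6 CPM. Those of *Thy1* were 8.34 CPM for NM_009382 and 4.96 CPM for the assembled CUFF.37273.2. The positions of the assembled transcripts are not given in the table, so what sets them apart is not known here.

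**Figure D3:**
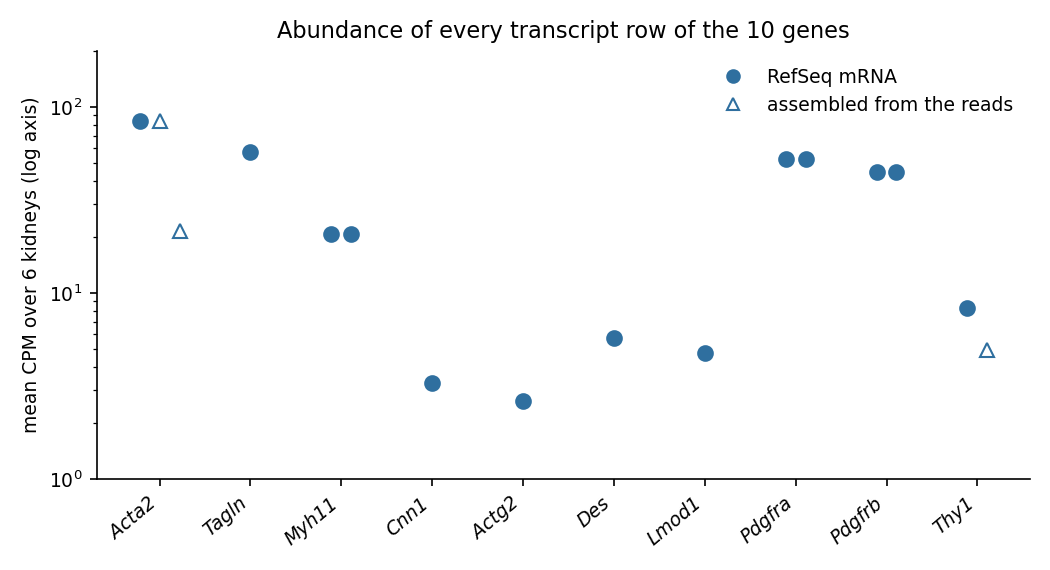
Mean CPM over the 6 kidneys (log axis) of each of the 16 transcripts of the 10 genes, with filled circles for RefSeq mRNAs and open triangles for transcripts assembled from the reads; no error is available. The transcripts of *Myh11*, *Pdgfra* and *Pdgfrb* sit at the same height, and the assembled transcripts of *Acta2* (21.6) and *Thy1* (4.96) lie below the RefSeq mRNA.

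The annotated isoforms could not be told apart. NM_001161775 and NM_013607 of *Myh11* had the same value, 20.8 CPM, and NM_001146268 and NM_008809 of *Pdgfrb* had the same value, 44.8 CPM. For *Pdgfra*, NM_001083316 had 52.5 CPM and NM_011058 had 52.4 CPM. By the GENCODE transcripts matched to them, the *Myh11* isoforms share 6175 exonic bases, with 374 in NM_001161775 alone and 39 in NM_013607 alone. On the same matching, the *Pdgfra* isoforms start at different positions and share 6383 bases, with 451 in NM_001083316 alone and 166 in NM_011058 alone. The RefSeq records themselves were not compared. The *Pdgfrb* identifiers correspond to a single GENCODE transcript. Among the 8470 genes of at least 1 CPM with several transcripts, 21.2% had all transcripts within 0.01 on the log2 scale. How a read lying in several transcripts was counted was not given in the sources used here, so a sum over the transcripts of a gene may count a read more than once, and each gene is represented by its highest transcript.

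The genes that work with the members were taken as lists of other contractile proteins, actins, PDGF ligands, regulators and mesenchymal markers, and all of them were in the table. Of 10 contractile partners, 9 lay above the median level of all gene symbols per kb. All 10 had a mean of at least 1 CPM. Of the 12853 genes of known length at that level, 11201 lay above the same median. The median of the partners was 18.5 CPM per kb, against 1.98 for the 7 contractile members. The lists were not matched for the cells that make them, and RNA of a whole kidney does not separate smooth muscle from other cells. *Myl9*, the regulatory light chain of smooth muscle myosin, was at 53.5 CPM per kb, and *Tagln* reached 0.670 times that level. *Myl6*, a light chain shared with non-muscle myosin, was highest at 317 CPM per kb, and *Synpo2*, an actin-bundling protein of muscle, was lowest at 0.267. The most abundant transcripts of *Myl6*, *Mylk*, *Cald1*, *Tpm2* and *Flna* are assembled ones, so their lengths were taken from RefSeq, and the median of the partners rests on these lengths too.

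The other actins lay on either side of those of smooth muscle. *Actb* and *Actg1*, the cytoskeletal actins that every cell makes, were at 179 and 232 CPM per kb, and *Actb* was 4.36-fold above *Acta2*. *Acta1* and *Actc1*, the actins of skeletal and heart muscle, were nearly silent, at 0.0615 and 0.0657 CPM per kb. *Acta2* and *Actg2* lay between these pairs.

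All 4 PDGF ligands had values below those of *Pdgfra* and *Pdgfrb* per kb. *Pdgfd* was highest at 7.57 CPM per kb, close to *Pdgfra* at 7.68, and without an error these 2 cannot be ordered. *Pdgfc* was lowest at 2.19. *Pdgfb*, the ligand that endothelial cells use to recruit pericytes, was at 5.03 CPM per kb, or 0.607 times the level of *Pdgfrb*. *Pdgfa*, a ligand of PDGFRα, was at 5.17 CPM per kb, or 0.673 times the level of *Pdgfra*. The most abundant transcripts of *Pdgfa* and *Pdgfd* are assembled ones, so their lengths were taken from RefSeq.

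Transcription of smooth muscle genes depends on serum response factor (SRF), which binds the CArG box, and on its partners myocardin and the MRTF proteins. *Srf* was the highest of these at 6.08 CPM per kb. *Mkl2* and *Mkl1*, which encode the MRTF proteins, were at 3.49 and 2.40. *Myocd*, the gene of myocardin, was lowest at 0.211 CPM per kb (1.08 CPM), 195-fold below *Acta2*, on the length of its longest RefSeq transcript.

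Other markers of mesenchymal cells lay over the same range as the members. All 8 were above the median level of all gene symbols, with a median of 9.42 CPM per kb. All 8 had a mean of at least 1 CPM, and most such genes, 11201 of 12853 with a known length, also lay above it. *Dcn* (decorin, a matrix proteoglycan of fibroblasts) was highest at 36.0 CPM per kb, 4.69-fold above *Pdgfra*. *Cspg4* (the pericyte proteoglycan NG2) was lowest at 1.36. *Rgs5*, another pericyte gene, was 3.57-fold above *Pdgfrb*, on the length of its longest RefSeq transcript because its most abundant one is assembled. *Vim*, the intermediate filament vimentin, was 10.2-fold above *Des*.

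**Figure D4:**
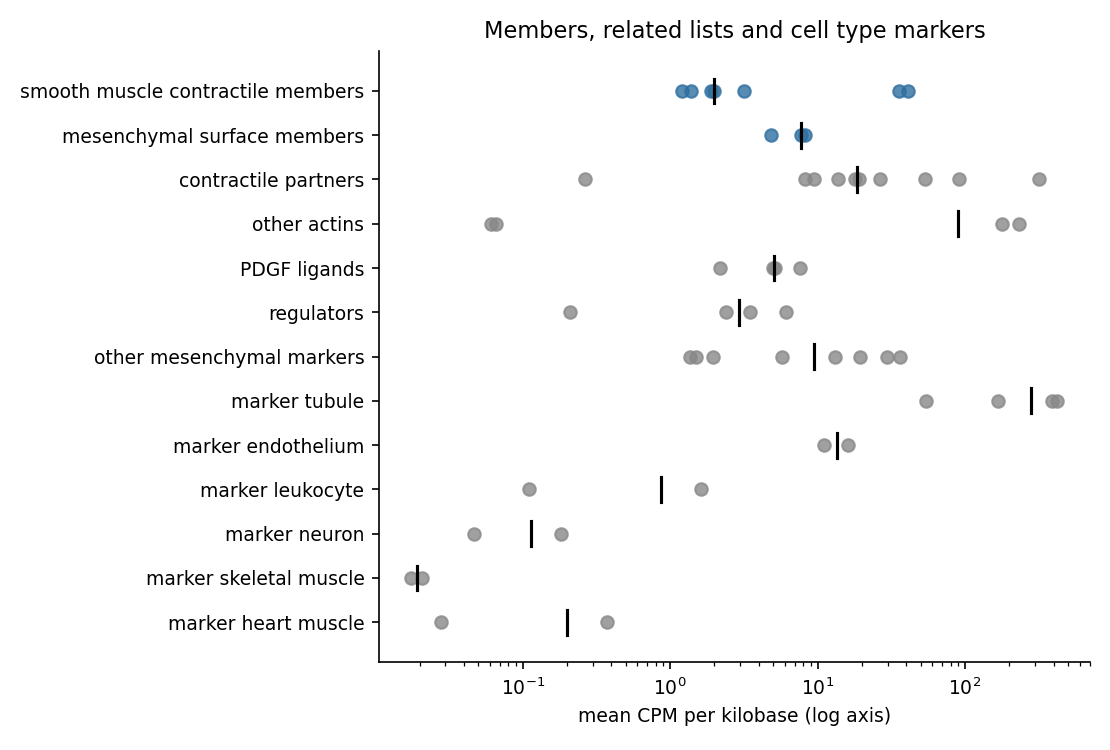
Mean CPM per kilobase (log axis) of each gene of the lists, with a black bar at the median of each list and the 10 genes described here in blue. The median of the contractile members (1.98) lies below that of the contractile partners (18.5), and the lists are not matched for the cells that make them. *Acta2* and *Tagln* lie above the partners' median and *Synpo2* lies below every member. Markers of neurons and of skeletal and heart muscle lie at the left.

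Markers of other cells gave the setting of these levels. The tubule markers *Slc34a1*, *Umod*, *Cdh16* and *Aqp2*, which define kidney epithelium, ranged from 54.8 to 423 CPM per kb, and *Slc34a1* was 11.8-fold above *Tagln*. For *Slc34a1*, *Umod* and *Aqp2* the most abundant transcript is assembled, so the length of the longest RefSeq transcript was used. Endothelial *Pecam1* and *Cdh5* were at 16.1 and 11.1 CPM per kb. *Thy1* and *Des* are also made outside the mesenchyme. For *Thy1*, the T cell gene *Cd3e* was at 0.110 CPM per kb, 43.8-fold below it, the leukocyte gene *Ptprc* was at 1.62, and the neuronal genes *Snap25* and *Rbfox3* were at 0.0469 and 0.182. For *Des*, which was at 1.89 CPM per kb, the skeletal muscle genes *Ckm* and *Myog* were at 0.0209 and 0.0176 CPM per kb. The mean of *Myog*, 0.0263 CPM, is the floor of the table, a value that 4617 transcripts share. The heart genes *Myh6* and *Tnni3* were at 0.0280 and 0.372 CPM per kb. Of these markers, *Ptprc* exceeded a mean of 1 CPM, the others were below it, and *Myog* alone was at the lowest value.

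Reads that align to several places were liable to removal, since the authors kept only alignments above a mapping quality limit. The coding sequences of *Acta2* and *Actg2* are identical at 84.4% of aligned bases, and *Acta2* is 85.4% identical to *Acta1* and 83.2% to *Actb*. Even so, of the 1985 windows of 51 bases (the read length) in the *Acta2* mRNA, 6 occur in a transcript of another gene, and of the 1283 windows of *Actg2* none does. In *Myh11*, 24 of 6499 windows occur in *Myh9* or *Myh10*, its non-muscle relatives, and in *Pdgfra* 9 of 6784 windows are shared. For *Tagln*, *Cnn1*, *Des*, *Lmod1*, *Pdgfrb* and *Thy1* no window was shared with a gene elsewhere. By contrast, 56.7% of the windows of *Actg1* were shared, with *Gm12715* and *Actg-ps1* among others, as were 248 of the 1870 windows of *Actb* (13.3%), so the levels of both and the ratio of *Actb* to *Acta2* are uncertain. Exact matches to annotated transcripts were counted, which misses near matches and copies that are not annotated.

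At 2 of the 10 genes, transcripts of the opposite strand overlap the exons. Of the 1595 bases of the *Tagln* mRNA, 877 are also covered by exons of *Gm48529*, an antisense transcript, and 108 by *Pcsk7*, a protease gene with a mean of 15.6 CPM. For *Des*, 220 bases are covered by the antisense *Gm15179*, which had a mean of 0.0293 CPM. The libraries were strand-specific, but whether the counting used the strand was not given in the sources used here, so reads of the opposite strands cannot be told apart here.

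The DKO kidneys differ from the SKO kidneys by the miR-17~92 alleles, and matches to the seeds of its miRNAs were sought in the 3′-UTRs. Those alleles were targeted in tubule cells, whereas the list was chosen as genes of myofibroblasts, smooth muscle and the interstitium. A match therefore says nothing of a difference between the genotypes, which was not tested. The 6 mature miRNAs of the cluster, from RefSeq (GRCm38.p6, forward strand of chromosome 14), are shown because they fall into 4 seed groups. Capitals mark the seed, bases 2 to 8.
miR-17-5p: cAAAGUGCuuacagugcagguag
miR-20a-5p: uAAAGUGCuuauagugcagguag
miR-18a-5p: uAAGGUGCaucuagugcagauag
miR-19a-3p: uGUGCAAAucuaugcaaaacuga
miR-19b-3p: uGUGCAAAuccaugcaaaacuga
miR-92a-3p: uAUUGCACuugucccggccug

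The 3′-UTRs searched were those of the most abundant RefSeq mRNA of each gene. Among the 10 genes, *Pdgfra* and *Myh11* held at least 1 of the 7-base matches on the sense strand and the other 8 held none, while 26.5% of 18931 genes held at least 1. *Pdgfra*, with a 3′-UTR of 3101 bases, longer than that of 89.8% of genes, held 3. The match to the miR-18a seed lies 1205 to 1211 bases after the stop codon (chr5:75196305-75196311). The match to the miR-19 seed lies at 2198 to 2204 (chr5:75197298-75197304). The match to the seed shared by miR-17 and miR-20a lies at 2885 to 2891 (chr5:75197985-75197991). The matches to the miR-18a and miR-19 seeds are followed by an A, and that to the miR-17 seed is not. *Myh11* held 1 match to the miR-19 seed at 475 to 481 of its 517 bases (reverse strand, chr16:14194571-14194577). This match is absent from the 3′-UTR of 293 bases in the GENCODE transcript matched to NM_013607. Whether the RefSeq record ends at the same place was not checked. The sites with 10 bases on either side are given from GENCODE transcripts (GRCm38), with the match in capitals.
Pdgfra, miR-18a: ttcaacatcaGCACCTTactttttctc
Pdgfra, miR-19: ttaccactcaTTTGCACagcctctgtt
Pdgfra, miR-17 and miR-20a: gttaactgttGCACTTTtgaatgtcca
Myh11, miR-19: atcacacttaTTTGCACccatggtcac

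Such matches are common in long 3′-UTRs. Over all genes, 11.1% of 3′-UTRs held GCACTTT, 10.1% TTTGCAC, 7.27% GCACCTT and 6.02% the miR-92a match GTGCAAT, which none of the 10 genes held. Of the 1807 genes with a 3′-UTR from 0.8 to 1.25 times as long as that of *Pdgfra*, 27.1% held GCACTTT, 23.1% TTTGCAC and 17.9% GCACCTT. Of the 2149 genes with a 3′-UTR of a length near that of *Myh11*, 4.47% held TTTGCAC. The matches describe sequence and no binding was measured here.

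**Figure D5:**
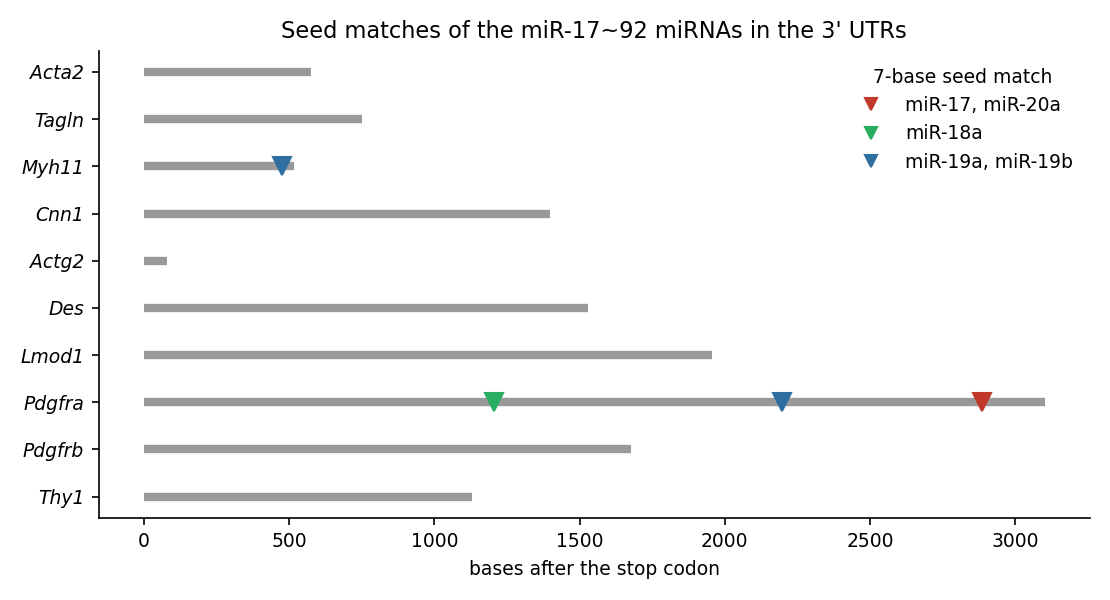
Length of the 3′-UTR of each of the 10 genes (grey bars, in bases after the stop codon) with triangles at the 7-base seed matches of the miR-17~92 miRNAs, coloured by seed. *Pdgfra* holds 3 matches and *Myh11* holds 1, and the other 8 genes hold none.

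The CArG box, bound by SRF, was sought on both strands of the RefSeq promoter windows, which run from 250 bases before to 50 bases after the start site. The windows of *Acta2*, *Cnn1*, *Des*, *Lmod1* and *Pdgfra* were searched, and those of the other 5 genes were not. The *Pdgfra* window (chr5:75152001-75152300) lies at the start of the GENCODE transcript matched to NM_011058. The one matched to NM_001083316, which represents the gene above, starts at 75155899, and its promoter was not searched. None of the 5 held an exact match to the box, and few windows of any gene did, 1.63% of 32851. Sequence outside the windows was not searched, so whether these genes have a box elsewhere is not known here. When 1 mismatch was allowed within the core of the box, 9.98% of windows held it, and among the 5 genes *Acta2* held 2 boxes, starting 84 and 34 bases before the RefSeq start site. They lie on the reverse strand at chr19:34255448-34255457 and chr19:34255398-34255407 (GRCm38.p6). The GENCODE transcript matched to NM_007392 starts further upstream, so that in that model both lie in the first exon. They are shown with 10 bases on either side because *Acta2* was the most abundant gene of the list, with the box in capitals.
Acta2, box at 84 bases: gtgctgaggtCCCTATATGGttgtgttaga
Acta2, box at 34 bases: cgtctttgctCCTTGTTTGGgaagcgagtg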

How the data were processed

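Total RNA of 6 kidneys, 3 *Pkd1*F/RC SKO and 3 *Pkd1*F/RC DKO, was sequenced as strand-specific libraries. The authors trimmed the 51 bp single-end reads, mapped them to mm10 with TopHat2 (2.0.12) and the iGenomes annotation and kept alignments above a mapping quality limit. The submitters' processing notes also name Cufflinks, featureCounts (Subread 1.4.6) and edgeR (3.2.4). The deposited table holds 54721 transcripts. Its abundance column is a log2 value, the mean log2 CPM that the authors obtained with edgeR, pooled over libraries. Its log2 fold changes, likelihood ratio statistics, p-values and adjusted p-values are the authors' own comparison of DKO with SKO and were not used. A quasi-likelihood count test was planned and was not run because the table holds no count for a sample. Library depth is unknown.

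CPM was computed as the power of 2 of the deposited value, and no filter or pseudocount was added to the authors' value. In the deposited column 4617 transcripts share the lowest mean, 0.0263 CPM. That value was taken as a floor of the table and not as a measured level. A gene was represented by its highest transcript, divided by the length of its GENCODE transcript (GRCm38, the assembly of mm10) matched by RefSeq identifier, or of the longest RefSeq transcript where the highest one was assembled. Shared windows were exact on either strand, and coding sequences were aligned globally. Python 3.11.15, pandas 2.3.3, numpy 2.4.6 and Biopython 1.88 were used, and the searches were tested on simulated data. Named genes are the members and, of each related list, its highest and lowest genes and those needed for a ratio or a cell type check. The members and lists were chosen with earlier results of these data known.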

Additional observations from a re-analysis of the deposited data

How the results depend on the processing

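The median level of the 10 genes was 14.5 CPM. It could not change with RefSeq mRNA transcripts alone, because the highest transcript of each of the 10 genes is a RefSeq mRNA. The median level shifted little when the lowest mean CPM of the table was subtracted, and rose to 27.4 CPM when all transcripts of a gene were summed. The sum was 2.26-fold the highest transcript for *Acta2* and 1.60-fold for *Thy1*. The median percentile of the 10 genes per kb, 70.4, was 68.3 with RefSeq mRNA transcripts alone, 69.6 with the sum and 48.0 among genes of at least 1 CPM, where fewer silent genes are counted. The order of the 10 genes per kb was the same with the sum and the subtraction. Using the longest RefSeq transcript could not alter it, because each of the 10 genes was already represented by that transcript. Without division by length 7 of the 10 took another place, *Acta2* and *Tagln* staying first, but *Tagln* was then 1.09-fold above the next gene, *Pdgfra*. Allowing 1 mismatch in the CArG core moved the number of promoters with a box from 0 to 1. An 8-base seed match left 0 genes with a match for miR-17 and miR-20a and 1 for miR-19, and did not alter the counts for miR-18a and miR-92a. DESeq2, other filters and leaving out a replicate were not run, since each needs counts per sample. No paired analysis was possible because the table holds no value of a single kidney. Depth limits the low genes, such as *Actg2* at 2.64 CPM, most, to an extent that is unknown.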
